A study of Drosophila melanogaster with 14 samples.

Results

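The genes described here encode the machinery that starts transcription by RNA polymerase II: Mediator, the TBP-associated factors (Taf) of TFIID, subunits of the polymerase itself and the general factors named TfII. They were chosen by name, as the genes whose symbol begins with MED or Taf and a number, or with RpII or TfII. Earlier results of these data were known when the choice was made. Of the 7624 listed genes, 50 matched. By complex they are 23 Mediator genes, 12 Taf genes, 5 RNA polymerase II genes and 9 TfII genes, and 1 more, RpIII128, which shares the prefix but encodes a subunit of RNA polymerase III. Further members of these families that go by other names were taken from lists and are described after them; MED23 is not analysed here.

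RNA polymerase II cannot find a promoter unaided. TFIID, which is built from TBP and the Taf proteins, binds promoter DNA, TFIIA and TFIIB settle on it, the polymerase arrives with TFIIF, and TFIIE and TFIIH complete the complex and open the DNA. Mediator bridges this assembly and the activators bound at enhancers; its head and middle modules touch the polymerase, its tail is the main contact for activators, and a separable kinase module regulates it. Polycomb Repressive Complex 1 (PRC1) is best known for silencing developmental genes, but it is also found at active genes, which is the setting the series' title names.

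The cells were ML-DmBG3-c2 (BG3), 1 established Drosophila line made from larval nervous tissue. Double-stranded RNA against Polyhomeotic (Ph, 3 libraries), Sex combs extra (Sce, 3 libraries) or Polycomb (Pc, 2 libraries), all subunits of PRC1, was added to the medium, and 6 libraries came from cells given the Mock treatment. All groups shared the same medium and serum steps, and in most experiments a pair of RNA fragments was used for each target, per the labels. Ribosomal RNA was removed before sequencing of total RNA. Libraries are numbered in the labels, with nothing on separate cultures, so a p-value may measure technical spread.

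What the table holds is the authors' mean signal per gene in each group, with its quotient over Mock and the p-value and q-value of that quotient. Single libraries are not used here, so their depth is unknown. The table also has columns marked nt.gene, with means for Ph, Sce and Mock. What nt.gene measures is stated in no header or label, no labelled sample bears that name, and how many libraries lie behind it is unknown. A gene is called here where the q-value in the authors' deposited table is under 0.05. The RNA of the targeted genes goes against the labels: by the authors' deposited table they stood at ratios of 8.638 (ph-p) and 8.088 (ph-d) in the group labelled Ph, 26.985 (Sce) and 21.476 (Pc) in the groups labelled for them, and reads from the added RNA cannot be separated from the genes' own. The groups are therefore called labelled Ph, labelled Sce and labelled Pc.

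Markers of cell types also differed between the groups, and within a list they did not move as one. Of 3 listed glial markers of 4, summed means were 439101 (labelled Ph), 227245 (labelled Sce), 294419 (labelled Pc) and 218557 (Mock). Among them repo rose in labelled Ph (ratio 54.008, q = 0.004) and in labelled Pc (5.381, q = 0.008) and nrv2 rose in labelled Ph (2.098, q = 0.015), while moody stood at 0.774 in labelled Ph (q = 0.405), all by the authors' deposited table. For 3 listed neuron markers of 8 the sums were 26842 (labelled Ph), 18942 (labelled Sce), 22806 (labelled Pc) and 20830 (Mock). Most of that sum was elav, at 1.226 of Mock in labelled Ph and not called, while Ace, at a far lower level, rose in labelled Ph (ratio 22.667, q = 0.027) by the authors' deposited table. For 2 listed muscle markers of 3 the sums were 56842 (labelled Ph), 45657 (labelled Sce), 43214 (labelled Pc) and 40460 (Mock); Mef2 made up most of them, and twi rose in labelled Ph (ratio 30.089, q = 0.03 in the authors' deposited table). For 3 listed hemocyte markers of 5 the sums were 63222 (labelled Ph), 119589 (labelled Sce), 80408 (labelled Pc) and 108560 (Mock). They follow srp, at 0.565 of Mock in labelled Ph, whereas Hml and eater stood at 1.453 and 1.462 there and at 15.0 and 1.765 in labelled Pc, none called, in the authors' deposited table. Fas3, the 1 listed follicle cell marker of 4, had authors' means of 46252 (labelled Ph), 4602 (labelled Sce), 12009.9 (labelled Pc) and 2405 (Mock), and was not called. The part of these shifts in the values below was not tested. In bulk RNA, fewer cells of a type and less RNA per cell cannot be told apart.

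None of the 50 genes was called in any group. In labelled Ph 0 of 50 passed, where 3.88% of all 7624 genes did; in labelled Sce 0 passed (0.249% of all genes), and in labelled Pc 0 passed (3.19% of all genes). The nt.gene columns gave 0 in labelled Ph (2.48% of all genes) and 0 in labelled Sce (0.118% of all genes). Since called genes are few in the whole table, a count of 0 among 50 is close to what the background share alone would put there. The smallest q-value of any of the 50 genes was 0.081 in the authors' deposited table, for MED16 in labelled Ph.

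At an unadjusted p under 0.05 in the authors' deposited table, 5 of the 50 genes stood out in labelled Ph (18.6% of all genes did), 4 in labelled Sce (11.6%), 3 in labelled Pc (14.4%), and by nt.gene 4 in labelled Ph (16.5%) and 1 in labelled Sce (9.90%). These counts lie below the background shares in each comparison. By size, 1 gene stood 1.5-fold or more above Mock in labelled Ph (13.1% of all genes) and 7 stood that far below it (14.4%). The counts were 2 above (10.3%) and 2 below (11.3%) in labelled Sce, and 4 above (12.6%) and 3 below (13.0%) in labelled Pc. By nt.gene 7 stood that far above Mock (16.5%) and 7 below (13.2%) in labelled Ph. In labelled Sce the nt.gene counts were 9 above (12.1%) and 3 below (9.69%). Every one of the 50 genes had a Mock mean above 798.3, the lowest level at which the table lists a gene, so none is listed through a treated group alone.

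**Figure D1:**
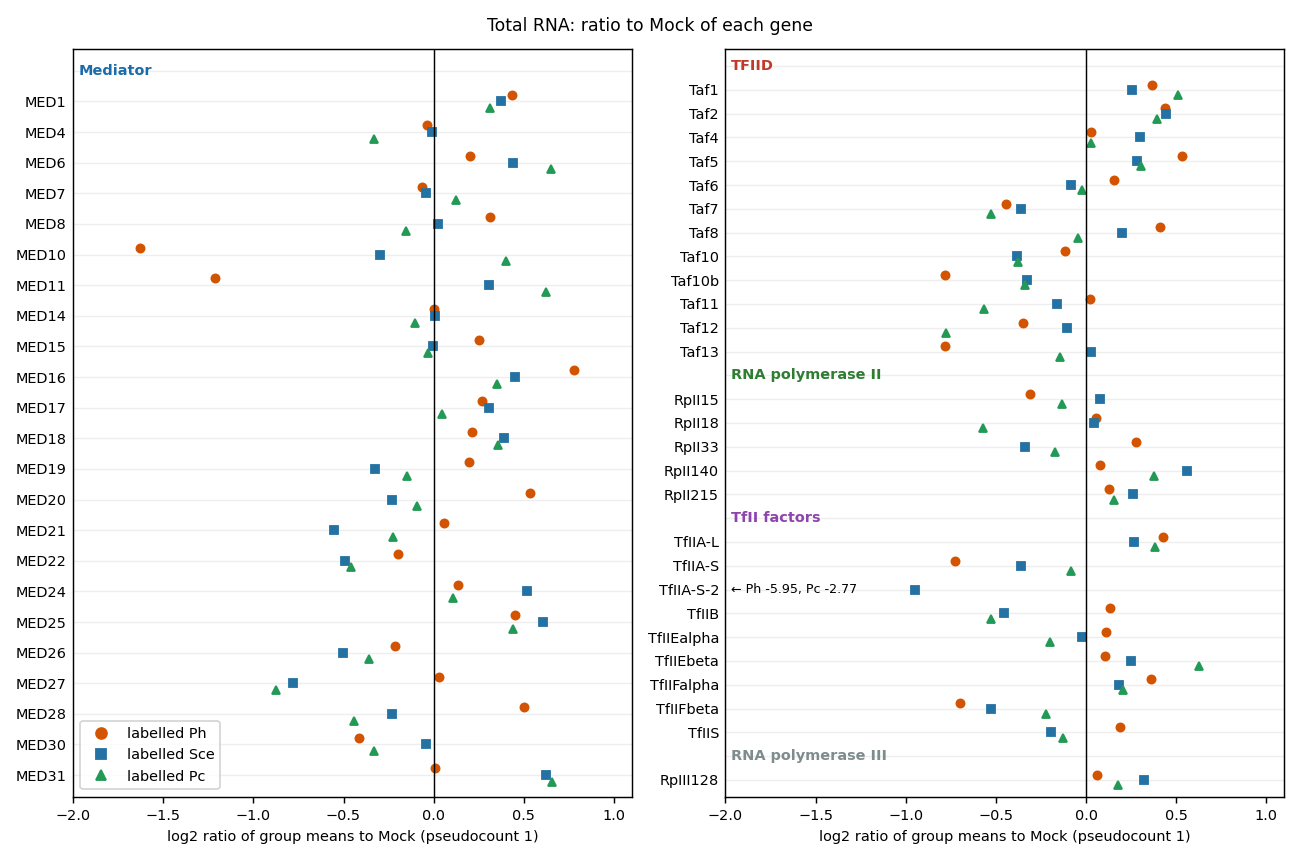
Log2 ratio of the authors' group mean to the Mock mean (pseudocount 1) in total RNA for each of the 50 genes, grouped by complex, with 1 marker for each of the groups labelled Ph, Sce and Pc. Most markers lie within 0.5 of the line of no difference; MED10 and MED11 stand apart in labelled Ph, and TfIIA-S-2 lies off the axis in labelled Ph and labelled Pc.

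The medians of the 50 log2 ratios were close to 0, and in labelled Pc the median lay below 0 where that of the whole table lay above it. In labelled Ph the median was 0.09, against 0.07 over all genes; in labelled Pc it was -0.09, against 0.05 over all genes. In labelled Sce it was 0.00, against 0.06 over all genes, and it changes sign when the values are centred on all genes (-0.06). By nt.gene the medians were 0.00 in labelled Ph, against 0.03 over all genes, and 0.10 in labelled Sce, against 0.01 over all genes. From the 25th to the 75th percentile the 50 genes spanned -0.18 to 0.27 in labelled Ph, where all genes spanned -0.29 to 0.36. The spans were -0.32 to 0.30 against -0.28 to 0.34 in labelled Sce, and -0.33 to 0.31 against -0.32 to 0.36 in labelled Pc. By nt.gene they were -0.29 to 0.44 against -0.32 to 0.39 in labelled Ph, and -0.17 to 0.45 against -0.27 to 0.32 in labelled Sce.

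Mediator had a median log2 ratio of 0.14 in labelled Ph, 0.00 in labelled Sce and -0.03 in labelled Pc. MED14, the backbone that ties head, middle and tail together, had the highest signal, and it was almost level across the groups: its authors' means were 213458 (labelled Ph), 214032 (labelled Sce), 198183 (labelled Pc) and 213197 (Mock). MED17, the central subunit of the head, had authors' means of 26154, 26925, 22446 and 21740.5 in the same order. MED1, which in mammals contacts nuclear receptors, had authors' means of 69779 (labelled Ph), 66872 (labelled Sce), 64198 (labelled Pc) and 51693 (Mock). MED1 stood above Mock in each labelled group, with ratios of 1.35, 1.294 and 1.242 and q-values of 0.267 or more in the authors' deposited table. MED26, which in mammals couples Mediator to elongation factors, stood below Mock in each, with authors' means of 77693 (labelled Ph), 63614 (labelled Sce), 70516 (labelled Pc) and 90316 (Mock), and its q-values in the authors' deposited table were 0.353 or more.

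The tail genes, whose products meet activators, held the highest Mediator value in labelled Ph. MED16 had authors' means of 22589 (labelled Ph), 18002 (labelled Sce), 16802 (labelled Pc) and 13172 (Mock). Its ratio in the authors' deposited table was 1.715 in labelled Ph (p = 0.009, q = 0.081), 1.367 in labelled Sce (p = 0.039, q = 0.248) and 1.276 in labelled Pc (q = 0.422). MED25 had authors' means of 25374 (labelled Ph), 28308 (labelled Sce), 25147 (labelled Pc) and 18562 (Mock), and its ratio of 1.525 in labelled Sce had p = 0.015 and q = 0.218 in the authors' deposited table. For MED24 the authors' means were 19387, 25277, 18981 and 17647, and for MED15, a target of activators, they were 37115, 31124, 30611 and 31232, in the same order of groups. All 4 tail genes thus had a labelled Ph mean above the Mock mean, with no call among them. They are long, with a median of 2760.5 bp of exon. Over all genes with 1287.5 bp of exon or more, 64.8% had a ratio above 1 in labelled Ph. By nt.gene this order was not repeated for MED16, whose means were 4799 (labelled Ph), 5778 (labelled Sce) and 6371 (Mock). Nor was it for MED24, at an nt.gene ratio of 0.81 in labelled Ph, while MED15 (1.389) and MED25 (1.093) stood above Mock in the authors' deposited table.

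The lowest Mediator values in labelled Ph belonged to a pair of very small subunits. MED10, a middle subunit, had authors' means of 2615 (labelled Ph), 6585 (labelled Sce), 10667 (labelled Pc) and 8081 (Mock). Its ratio of 0.324 in labelled Ph had p = 0.084 and q = 0.2 in the authors' deposited table. MED11, which sits in the head with MED17 and MED22, had authors' means of 3588 (labelled Ph), 10297 (labelled Sce), 12797 (labelled Pc) and 8324 (Mock). Its ratio of 0.431 in labelled Ph had p = 0.029 and q = 0.126 in the authors' deposited table. For both genes labelled Ph was the lowest group and labelled Pc the highest; the quotient of the labelled Ph and labelled Pc means was 0.245 (MED10) and 0.28 (MED11). MED22, the shortest of the head genes, had authors' means of 20176 (labelled Ph), 16474 (labelled Sce), 16837 (labelled Pc) and 23147 (Mock).

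The groups labelled Sce and Pc were set against the same Mock libraries, so their values are given side by side. MED31, a conserved middle subunit, had authors' means of 9150.3 (labelled Ph), 14001 (labelled Sce), 14312 (labelled Pc) and 9088 (Mock). It was the highest Mediator gene in both, at 1.541 in labelled Sce (p = 0.035, q = 0.246) and 1.575 in labelled Pc (p = 0.028, q = 0.177) by the authors' deposited table. The lowest in both was MED27, a subunit at the junction of head and tail, with authors' means of 8481 (labelled Ph), 4852 (labelled Sce), 4528 (labelled Pc) and 8319 (Mock). Its ratios of 0.583 (labelled Sce) and 0.544 (labelled Pc) had q-values of 0.319 and 0.383 in the authors' deposited table. In both genes labelled Ph lay beside Mock, at ratios of 1.007 and 1.019 in the authors' deposited table.

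Other Mediator genes with p under 0.05 in the authors' deposited table differed by less. MED30 stood at 0.749 of Mock in labelled Ph (p = 0.025, q = 0.12 in the authors' deposited table), with authors' means of 27158 (labelled Ph), 35243 (labelled Sce), 28801 (labelled Pc) and 36250.2 (Mock). MED19, a partner of Hox proteins in flies, stood at 0.797 in labelled Sce (p = 0.042, q = 0.253 in the authors' deposited table), with authors' means of 26245 (labelled Ph), 18299 (labelled Sce), 20747 (labelled Pc) and 22955 (Mock). MED18, part of the movable jaw of the head, stood at 1.282 in labelled Pc (p = 0.022, q = 0.157 in the authors' deposited table), with authors' means of 20081 (labelled Ph), 22705 (labelled Sce), 22229 (labelled Pc) and 17342 (Mock). The lowest Mock signal in Mediator was that of MED21, a middle subunit, with authors' means of 5736 (labelled Ph), 3761 (labelled Sce), 4706 (labelled Pc) and 5513 (Mock). MED6, of the head, had the lowest signal per length, with authors' means of 8759.6 (labelled Ph), 10334 (labelled Sce), 11939 (labelled Pc) and 7605 (Mock); its ratio of 1.57 in labelled Pc had q = 0.304 in the authors' deposited table. The remaining MED4, MED7, MED8, MED20 and MED28 had ratios between 0.735 and 1.45 and q-values of 0.22 or more in total RNA in the authors' deposited table.

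The Taf genes had median log2 ratios of 0.03 in labelled Ph, -0.03 in labelled Sce and -0.10 in labelled Pc. The scaffold subunits without a histone fold were Taf1, Taf2, Taf5 and Taf7. Taf1, the largest, which reads acetylated histones and core promoter DNA, had authors' means of 83176 (labelled Ph), 76975 (labelled Sce), 92032 (labelled Pc) and 64544 (Mock). Its ratio of 1.426 in labelled Pc was the highest of the Taf genes there (q = 0.362 in the authors' deposited table). Taf2, which binds the initiator element, had authors' means of 46082 (labelled Ph), 46317 (labelled Sce), 44680.1 (labelled Pc) and 34022 (Mock). Its total RNA q-values in the authors' deposited table were between 0.256 and 0.446. Taf5, a WD-repeat scaffold, came nearest to a call, with authors' means of 25542 (labelled Ph), 21502 (labelled Sce), 21853 (labelled Pc) and 17684 (Mock). Its ratio in labelled Ph was 1.444 with p = 0.012 and q = 0.09 in the authors' deposited table. Taf7, which holds back Taf1 in mammals, ran the other way, with authors' means of 6405 (labelled Ph), 6769 (labelled Sce), 6038 (labelled Pc) and 8704 (Mock).

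The 8 histone fold Taf genes act in pairs, and in total RNA partners did not always stand on the same side of Mock. None was called. Some partners differ in exonic length, as do Taf8 (1341 bp) and Taf10 (664 bp), and Taf4 (5516 bp) and Taf12 (1234 bp). Taf11 (777 bp) and Taf13 (628 bp) differ less. Taf8 had authors' means of 8946 (labelled Ph), 7735 (labelled Sce), 6531 (labelled Pc) and 6741 (Mock), with a ratio of 1.327 in labelled Ph (p = 0.039, q = 0.142 in the authors' deposited table). Its partner Taf10 had authors' means of 21125, 17604, 17656 and 22922 in that order, and the paralogue Taf10b had 13092, 17985, 17830.5 and 22535. Taf10b and Taf13 had the lowest ratio of the Taf genes in labelled Ph, 0.581 in the authors' deposited table for both (q = 0.277 and 0.275). Taf13 had authors' means of 13687 (labelled Ph), 23966 (labelled Sce), 21303 (labelled Pc) and 23553 (Mock), while its partner Taf11 had 19910.2, 17548, 13229.9 and 19589.8. Taf4, with the highest Mock signal of the Taf genes, had authors' means of 70698 (labelled Ph), 85444 (labelled Sce), 70581 (labelled Pc) and 69336 (Mock). Its partner Taf12 had authors' means of 6599.7, 7813, 4909 and 8401, and at 0.584 of Mock in labelled Pc it was the lowest Taf gene there (q = 0.468 in the authors' deposited table). Taf6, whose partner is Taf9, stayed near Mock in total RNA, where its ratio lay from 0.945 to 1.114 in the authors' deposited table.

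**Figure D2:**
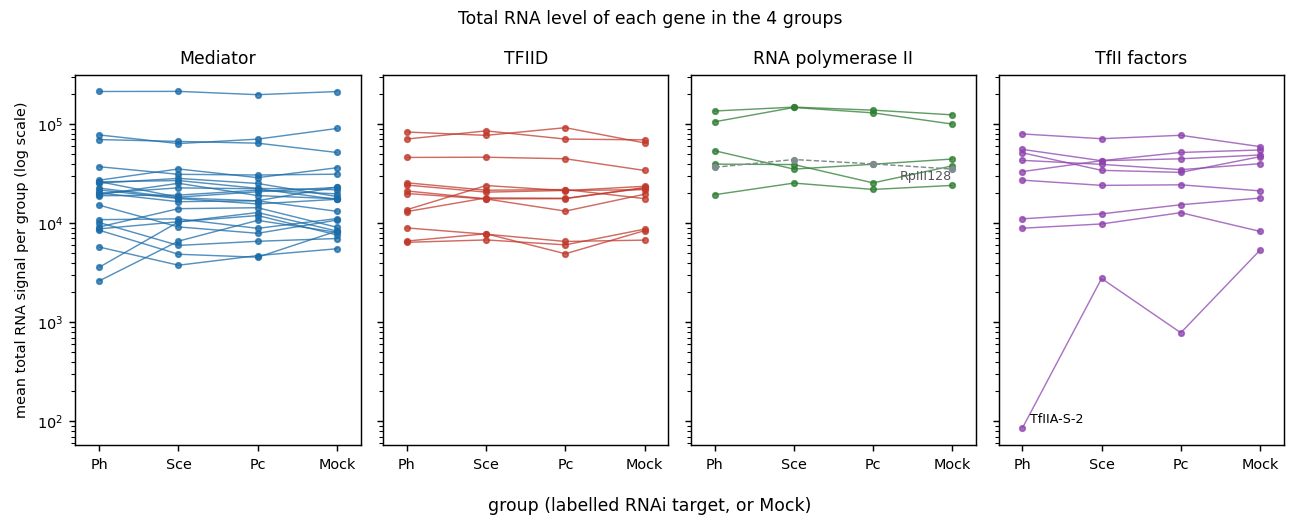
Mean total RNA signal of the authors (log axis) of each gene in the groups labelled Ph, Sce and Pc and in Mock, with 1 panel for each complex; a line joins the values of 1 gene, and the dashed line is RpIII128. Most lines run nearly flat, MED10 and MED11 dip in labelled Ph, MED14 stays between 198183 and 214032 at the top of Mediator, and TfIIA-S-2 drops to 85.2 in labelled Ph.

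The RNA polymerase II genes had median log2 ratios of 0.08 in labelled Ph, 0.08 in labelled Sce and -0.14 in labelled Pc in total RNA. RpII215 (now Polr2A), the largest subunit, which carries the C-terminal repeat domain, had authors' means of 135608 (labelled Ph), 148383 (labelled Sce), 138316 (labelled Pc) and 124021 (Mock). RpII140 (Polr2B), which forms the active site with it, had authors' means of 105561 (labelled Ph), 147256 (labelled Sce), 129847 (labelled Pc) and 100085 (Mock). Its ratio of 1.471 in labelled Sce was the highest of the polymerase II genes in total RNA, with p = 0.092 and q = 0.285 in the authors' deposited table. RpII33 (Polr2C), an assembly platform of the enzyme, had authors' means of 53833, 35108, 39351 and 44407 in the same order. RpII18 (Polr2F), which is also part of RNA polymerases I and III, had authors' means of 39448 (labelled Ph), 39033 (labelled Sce), 25497 (labelled Pc) and 37899 (Mock), and its ratio of 0.673 in labelled Pc was the lowest of the set (q = 0.322 in the authors' deposited table). RpII15 (Polr2I), which aids start site choice in yeast, had authors' means of 19359.5, 25392, 21887 and 24051. RpIII128 (Polr3B), the polymerase III counterpart of RpII140, had authors' means of 36646 (labelled Ph), 43890.0 (labelled Sce), 39648 (labelled Pc) and 35134 (Mock), and q-values of 0.291 or more in total RNA in the authors' deposited table.

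The TfII genes had median log2 ratios of 0.11 in labelled Ph, -0.19 in labelled Sce and -0.13 in labelled Pc. TfIIA-L, which encodes the large precursor, had authors' means of 79568 (labelled Ph), 71189.9 (labelled Sce), 77119 (labelled Pc) and 59246 (Mock). TfIIA-S, the small subunit, had authors' means of 33158 (labelled Ph), 42718 (labelled Sce), 51742 (labelled Pc) and 54786 (Mock), and its ratio of 0.605 in labelled Ph had p = 0.176 in the authors' deposited table. Its paralogue TfIIA-S-2 had the widest range of all 50 genes, with authors' means of 85.2 (labelled Ph), 2762 (labelled Sce), 782 (labelled Pc) and 5339 (Mock). Its ratios of 0.016 (labelled Ph), 0.517 (labelled Sce) and 0.147 (labelled Pc) nevertheless had p-values of 0.173, 0.502 and 0.332 in the authors' deposited table. The spread between the libraries behind these means is not shown there. Reads of such paralogues may have been divided between them.

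TFIIE, which brings in TFIIH, had TfIIEbeta above Mock in labelled Pc, where its ratio was 1.546 (p = 0.032, q = 0.189 in the authors' deposited table). Its authors' means were 8890.2 (labelled Ph), 9814 (labelled Sce), 12763 (labelled Pc) and 8256 (Mock), and those of TfIIEalpha were 43059, 39228, 34684 and 39846. TFIIF travels with the polymerase: TfIIFalpha had authors' means of 27170.5 (labelled Ph), 24069 (labelled Sce), 24374 (labelled Pc) and 21179 (Mock), while TfIIFbeta had 11055, 12409.5, 15339 and 17919. In total RNA the alpha gene stood above Mock in each labelled group and the beta gene below it in each. Their smallest total RNA q-value was 0.184, for TfIIFbeta in labelled Ph, by the authors' deposited table. By nt.gene TfIIFbeta stood above Mock instead, at deposited ratios of 1.326 (labelled Ph) and 1.202 (labelled Sce), over a low Mock mean of 293. The genes also differ in exonic length, at 1938 bp (alpha) and 1118 bp (beta), and the beta gene overlaps Cap-H2. The part of either in these values was not tested. TfIIB, which links TBP to the polymerase, had authors' means of 51333 (labelled Ph), 34140.5 (labelled Sce), 32563 (labelled Pc) and 46887 (Mock). TfIIS, which rescues stalled polymerase, had authors' means of 55553 (labelled Ph), 42688 (labelled Sce), 44635 (labelled Pc) and 48777 (Mock). For both genes labelled Ph was the highest of the 4 groups in total RNA. Neither had a total RNA q-value under 0.317 in the authors' deposited table.

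The nt.gene columns gave another picture of the large polymerase subunits. RpII140 had nt.gene means of 17381 (labelled Ph), 22331 (labelled Sce) and 30246 (Mock), and RpII215 had 55373, 62339.8 and 74847 in that order. Both were lowest in labelled Ph and highest in Mock by nt.gene. In total RNA both labelled groups lay above Mock, at ratios in labelled Ph of 1.055 for RpII140 (p = 0.802) and 1.093 for RpII215 (p = 0.74) in the authors' deposited table. The nt.gene ratio of RpII140 in the authors' deposited table was 0.575 in labelled Ph (p = 0.01, q = 0.097) and 0.738 in labelled Sce (p = 0.072, q = 0.461). That of RpII215 was 0.74 in labelled Ph (p = 0.052, q = 0.206) and 0.833 in labelled Sce (q = 0.567) in the authors' deposited table. RpIII128 had nt.gene means of 6854 (labelled Ph), 9429 (labelled Sce) and 10706 (Mock), a ratio of 0.64 in labelled Ph with q = 0.27 in the authors' deposited table. The small RpII18 ran the other way, with nt.gene means of 3109.7 (labelled Ph), 2939.9 (labelled Sce) and 2205 (Mock), a ratio of 1.41 with p = 0.028 and q = 0.156 in labelled Ph in the authors' deposited table. RpII15 had nt.gene means of 1678, 1321 and 1006, and RpII33 had 4139, 3522 and 4179.

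**Figure D3:**
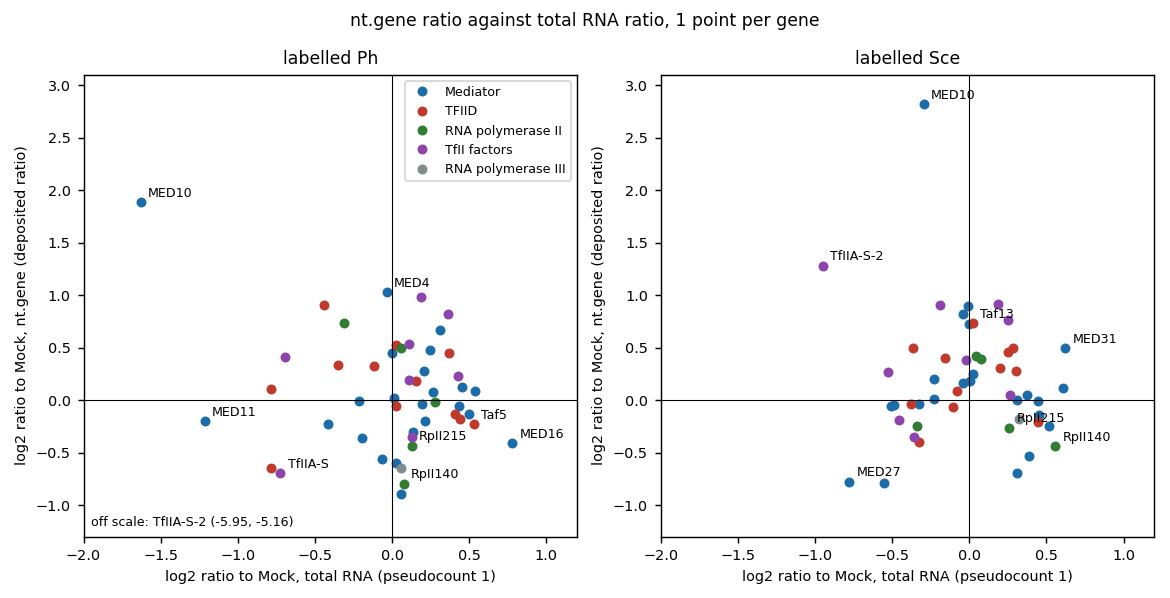
Log2 ratio to Mock by nt.gene (vertical, from the deposited ratio) against that in total RNA (horizontal, pseudocount 1), with 1 point for each gene coloured by complex, in the group labelled Ph (left panel) and the group labelled Sce (right panel). RpII140 and RpII215 lie below 0 by nt.gene and above 0 in total RNA in both panels, and MED10 has the highest nt.gene ratio in both.

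In Mediator the highest ratios by nt.gene belonged to a gene of low signal. MED10 had nt.gene means of 197 (labelled Ph), 376 (labelled Sce) and 53.3 (Mock), so its ratios of 3.694 and 7.061 in the authors' deposited table rest on very little signal in Mock, where the median over the 50 genes was 2221. MED21 was the lowest in both labelled groups, with nt.gene means of 758 (labelled Ph), 815 (labelled Sce) and 1411 (Mock). MED8, of the head, had nt.gene means of 1651 (labelled Ph), 1236 (labelled Sce) and 1041 (Mock), and its ratio of 1.586 in labelled Ph had p = 0.041 and q = 0.183 in the authors' deposited table. MED4, of the middle module, had nt.gene means of 2672 (labelled Ph), 2442 (labelled Sce) and 1309 (Mock), with q-values of 0.258 and 0.538 in the authors' deposited table. MED14 had nt.gene means of 206706 (labelled Ph), 171728 (labelled Sce) and 151659 (Mock), and q-values of 0.463 and 0.752 in the authors' deposited table.

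The nt.gene medians of the Taf and TfII genes lay above that of all genes, with no call among them. In labelled Sce the median log2 ratio was 0.29 over the 12 Taf genes and 0.39 over the 9 TfII genes, beside 0.01 over all genes. In labelled Ph the medians were 0.14 and 0.23, beside 0.03 over all genes. The other complexes did not share this: Mediator had nt.gene medians of -0.04 (labelled Ph) and 0.01 (labelled Sce). Those of the RNA polymerase II genes were -0.01 (labelled Ph) and -0.25 (labelled Sce). Taf13 had nt.gene means of 1144 (labelled Ph), 1764 (labelled Sce) and 1062 (Mock), and its ratio of 1.661 in labelled Sce had p = 0.015 and q = 0.3 in the authors' deposited table. Taf7 had the highest Taf ratio in labelled Ph, with nt.gene means of 1067 (labelled Ph), 800.2 (labelled Sce) and 569 (Mock), and Taf10b the lowest in both labelled groups, with 433, 514 and 677. TfIIA-S had nt.gene means of 1602 (labelled Ph), 2038 (labelled Sce) and 2594 (Mock), and its ratio of 0.617 in labelled Ph had p = 0.046 and q = 0.193 in the authors' deposited table. TfIIFalpha had nt.gene means of 2563 (labelled Ph), 2736 (labelled Sce) and 1456 (Mock), and TfIIS had 1887, 1786 and 957; in both genes the 2 labelled groups lay above Mock. TfIIA-S-2 was listed at 1.13 in labelled Ph, the lowest value of that column, at 96.8 in labelled Sce and at 39.9 in Mock. Its ratio of 0.028 in labelled Ph in the authors' deposited table thus rests on almost no signal.

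Exonic length ran alongside the total RNA ratios. In labelled Ph, 23 of the 25 longer genes (1287.5 bp of exon or more, the median of the 50) had a ratio above 1, against 11 of the 25 shorter ones. The medians of these sets were 0.19 and -0.06 on the log2 scale. Over all genes split at the same length, 64.8% of the longer and 26.3% of the shorter had a ratio above 1 in labelled Ph. The same counts among the 50 genes were 17 and 8 in labelled Sce and 15 and 6 in labelled Pc. Over all genes the shares were 62.6% and 30.2% in labelled Sce and 59.5% and 34.7% in labelled Pc. By nt.gene the counts were 12 and 13 in labelled Ph and 15 and 15 in labelled Sce. Over all genes the nt.gene shares were 52.5% and 52.0% in labelled Ph and 52.7% and 47.4% in labelled Sce. Across the 50 genes, which share the same libraries, Spearman's rho of exonic length with the log2 ratio was 0.48 (labelled Ph), 0.49 (labelled Sce) and 0.44 (labelled Pc) in total RNA, beside 0.38, 0.37 and 0.31 across the 7577 genes with a length. By nt.gene it was 0.03 (labelled Ph) and -0.07 (labelled Sce).

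Of the 7 genes 1.5-fold or more below Mock in labelled Ph, 6 are among the shortest: MED10 has 638 bp of exon, MED11 713 bp, Taf13 628 bp, Taf10b 560 bp, TfIIA-S 617 bp and TfIIA-S-2 462 bp. The other is TfIIFbeta, with 1118 bp. Short genes did not always lie low, since RpII18 (541 bp) and MED22 (602 bp) stood at 1.041 and 0.872 of Mock in labelled Ph in the authors' deposited table. Set against genes of like length, the median log2 ratio of Mediator in labelled Ph was 0.20, with 17 of its 23 genes above their length bin. That of the polymerase II genes turned to -0.08, with 2 of 5 above, where the plain median was 0.08. These shifts differed by group. In labelled Sce the like-length medians were 0.16 for Mediator (15 of 23 above) and 0.28 for the polymerase II genes (3 of 5 above). In labelled Pc they were -0.01 (11 of 23 above) and 0.00 (2 of 5 above). Length was taken from a current annotation, and its part in the single values was not tested.

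**Figure D4:**
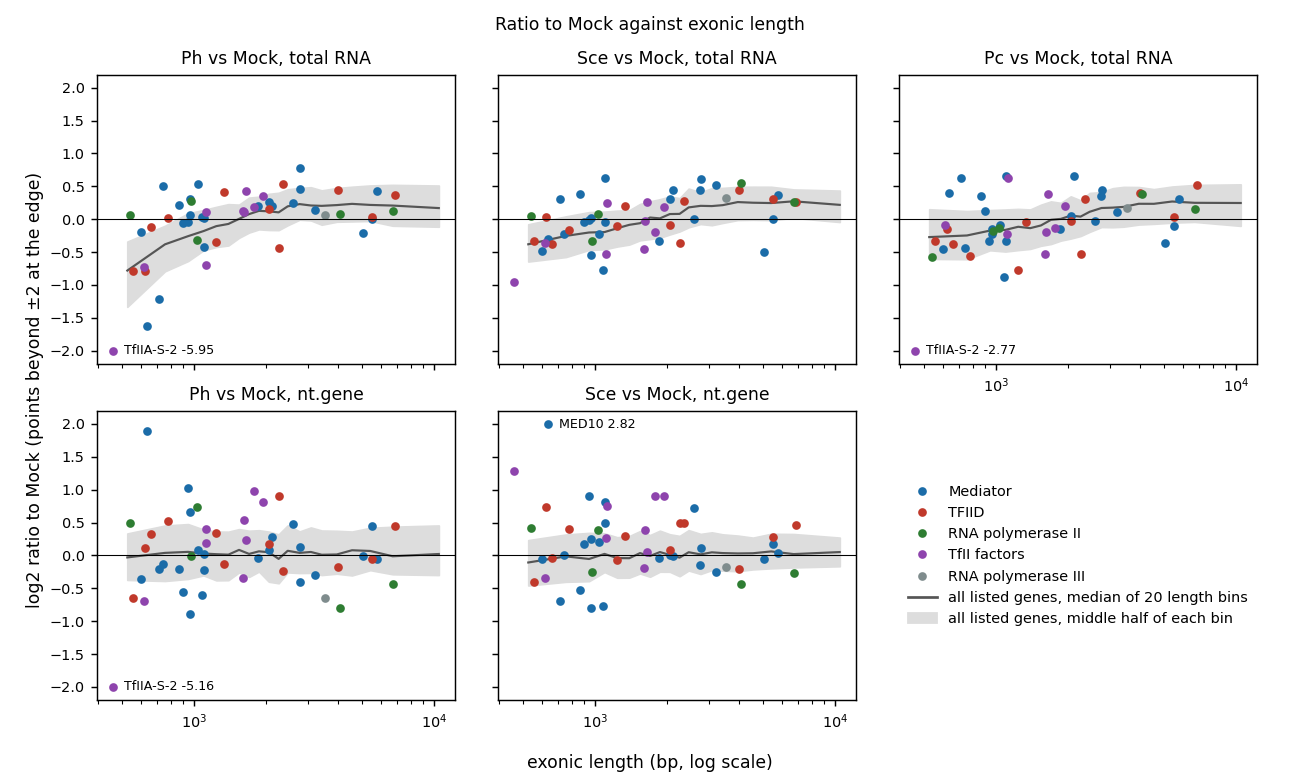
Log2 ratio to Mock against exonic length (bp, log axis) in the 5 comparisons, with 1 point for each of the 50 genes coloured by complex; the grey line is the median of all listed genes in 20 bins of length and the grey band runs from the 25th to the 75th percentile of each bin. The grey line climbs with length in total RNA and is nearly flat by nt.gene. Points beyond the axis are drawn at its edge and labelled. They are TfIIA-S-2 in labelled Ph (total RNA and nt.gene) and in labelled Pc, and MED10 by nt.gene in labelled Sce.

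Levels of different genes can be compared only per length, and no source says whether the authors had already divided by length. Per kb of exon, the Mock signal was highest for TfIIA-S (88794), RpII18 (70053) and RpII33 (45780.5) and lowest for MED6 (3586), Taf7 (3850) and MED16 (4781). In Mediator the highest per kb was MED14 (38672), and among the Taf genes it was Taf10b (40241). In 22 of the 50 genes the annotation overlaps another gene, MED14 and MED11 among them; whether counting used strand is not given, so reads of such pairs may not be told apart.

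The rest of the machinery was read from lists of genes under other names, and 93 genes that are no members were listed. Of these, 0 were called in labelled Ph, 0 in labelled Sce and 2 rose in labelled Pc (2.15%); by nt.gene 0 were called in either group. The shares over all genes, given above, were 3.88%, 0.249% and 3.19% in total RNA and 2.48% and 0.118% by nt.gene, so the share in labelled Pc lay below that of the whole table. The 2 were ear, part of the super elongation complex, and CG5147, annotated by RefSeq as the polymerase III subunit Polr3D. The authors' means of ear were 39194.5 (labelled Ph), 50738 (labelled Sce), 54382 (labelled Pc) and 27184 (Mock), and its ratio in labelled Pc was 2.001 (q = 0.023 in the authors' deposited table). Those of CG5147 were 25980.3 (labelled Ph), 33513 (labelled Sce), 33932 (labelled Pc) and 23906 (Mock), with a ratio of 1.419 in labelled Pc (q = 0.034 in the authors' deposited table).

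Closest to the members were the kinase module of Mediator and the polymerase II subunits named Rpb. The 4 kinase module genes (kto, skd, Cdk8 and CycC) had median log2 ratios of 0.21 (labelled Ph), 0.08 (labelled Sce) and -0.01 (labelled Pc), with the smallest q-value, 0.283 in the authors' deposited table, for CycC in labelled Ph. The 6 Rpb genes had a median log2 ratio of -0.59 in labelled Ph, where Rpb5 stood at 1.446 of Mock (q = 0.095) and Rpb10 at 0.439 (q = 0.144) in the authors' deposited table. These genes are short, with a median of 604 bp of exon, and set against genes of like length their median in labelled Ph was 0.05, with 3 of 6 above their length bin. Tbp, the DNA-binding core of TFIID, had authors' means of 9805 (labelled Ph), 9272 (labelled Sce), 8208 (labelled Pc) and 10550.5 (Mock). Of 8 TFIIH genes, 21 SAGA and ATAC coactivator genes, 9 genes of C-terminal domain phosphatases and termination and 8 RNA polymerase I genes, 0 were called in any of the 5 comparisons, with smallest q-values in labelled Ph total RNA of 0.157 (Tfb1), 0.121 (not), 0.107 (Pcf11) and 0.234 (RpI12) in the authors' deposited table. In lists this small, the shares over all genes, 3.88% at most, would put under 1 gene in each list and comparison. The 22 pausing and elongation genes had median log2 ratios of 0.23 (labelled Ph), 0.28 (labelled Sce) and 0.23 (labelled Pc), beside 0.07, 0.06 and 0.05 over all genes. These genes are long, with a median of 3310.5 bp of exon, and set against genes of like length their medians were 0.03 (labelled Ph), 0.14 (labelled Sce) and 0.12 (labelled Pc), with 11, 13 and 14 of 22 above their length bin. Of 3 Taf genes under other names and 4 genes of TBP and its relatives 0 were called, with smallest q-values over the 5 comparisons of 0.067 (mia, by nt.gene in labelled Ph) and 0.191 (Tbp, in labelled Pc) in the authors' deposited table.

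How large a ratio had to be for a call bears on the count of 0. Of all genes 1.25 to 1.5 times Mock in labelled Ph, 2.58% were called, and 10 of the 50 genes were in that range. Between 1.5 and 2 times Mock the share was 12.5%, with 1 of the 50 genes, MED16, and at 2 times Mock or more it was 35.0%, with 0 of the 50. Genes at least 2 times below Mock were called in 4.38% of cases, and MED10, MED11 and TfIIA-S-2 were the 3 in that range. Most differences of the sizes seen in the 50 genes were thus not called elsewhere in the table either, and a q-value above 0.05 does not show that a gene did not differ.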

How the data were processed

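Mean signal per gene and group, ratios to Mock, p-values and q-values (3 decimals) were the authors', per the file headers. The submitters' processing notes name bedtools; no aligner, build, counting, normalization or test is named in the sources at hand. Totals of the 4 deposited total RNA signal columns differ by at most 0.0209%. The deposited nt.gene means are treated as a score, as their unit is not stated. The table holds 0 columns of values per library, so depth, replicate spread, leave-one-out and blocked fits could not be had, and no p-value was computed. Log2 ratios of total RNA used a pseudocount of 1; those of nt.gene are the log2 of the deposited ratio. Exonic length came from Ensembl release 115 by symbol, through RefSeq synonyms where needed (7577 of 7624 genes, 50 of 50 members), and its coordinates served only to find which genes overlap. Names on the lists were matched likewise. Python 3.11.15, pandas 2.3.3 and scipy 1.17.1 were used; the Benjamini-Hochberg and length-bin code was checked on simulated data. Members, lists and tests were chosen with earlier results of these data known. Named were the RpII and TfII genes, the highest and lowest Mediator and Taf genes by ratio and Mock level, a few core subunits, members with p under 0.05, and from each list the genes called or with the smallest q-value; small subunits and partners beside them were added after their values were seen.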

Additional observations from a re-analysis of the deposited data

How the results depend on the processing

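The count of called genes was 0 in each of the 5 comparisons, and stayed 0 with the Benjamini-Hochberg value of the deposited p-values and without RpIII128. At a q-value under 0.1 it became 2 in labelled Ph (MED16 and Taf5) and 1 by nt.gene in labelled Ph (RpII140), and stayed 0 in the other 3. At an unadjusted p under 0.05 it became 5 (labelled Ph), 4 (labelled Sce) and 3 (labelled Pc) in total RNA, and 4 (labelled Ph) and 1 (labelled Sce) by nt.gene. The 31 alternative medians of the 50 genes moved by less than 0.1 on the log2 scale under another pseudocount, centring on all genes or on genes of like length, a floor on the Mock mean, and leaving out RpIII128 or TfIIA-S-2; the last was chosen after seeing the data. Medians this near 0 changed sign under some of these in labelled Sce total RNA and labelled Ph nt.gene. Leaving out each replicate was not run, because values of single libraries are not used here. No paired analysis was possible because the columns are group means and carry no replicate number. Depth is unknown, and low nt.gene values limit the ratios of MED10, MED11, TfIIFbeta and TfIIA-S-2.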
